A study of Mus musculus with 6 samples.

Results

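The heat shock protein and DnaJ genes were examined in mouse embryonic cardiomyocytes, sorted at E12.5, with and without the Hippo pathway coactivator Yap. A gene was taken as a member when its probe set carried a single annotated symbol starting with Hspa, Hspb, Hspd, Hspe, Hsph, Hsp90 or Dnaj. Each gene was represented by its brightest probe set, by the mean log2 intensity of the 6 arrays, and that mean had to reach the 40th percentile of the means of all probe sets, which was an intensity of 85.7. Of 72 genes with such a symbol, 65 reached this level, among 13632 genes tested in all. The genes just inside it were Dnajb8 (mean 89.6) and Hspb9 (93.7), and the gene just outside was Dnajb6 (84.65). The other 6 genes left out were Dnajc6, Dnajc22, Dnajb13, Dnajc5b, Dnajb7 and Dnajc5g, with means from 32.98 to 80.

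Embryos came from crosses of TNTCre, Yap flox and R26 mTmG mice. TNTCre drives Cre recombinase from the cardiac troponin T promoter, and mTmG turns a cell green where Cre has acted, so the green cells were sorted. The 3 Yap HET arrays are the controls, and they carry Cre, the reporter and a floxed allele too, so they are not wild type. The 3 Yap KO arrays come from Yap knockout embryos of the same age. The replicates are described as biological. The sources used here do not say whether hearts were pooled on an array or which embryos were littermates. The targeted gene Yap1 read 871 to 927 on Yap HET and 84.7 to 103 on Yap KO arrays, which matches the labels. The median over all probe sets was 132 to 140 on the Yap HET and 128 to 133 on the Yap KO arrays. The 12 cardiomyocyte markers listed (Tnnt2, Myh6, Actc1 and others) all lay above the level, with 0 of 12 past the limma threshold; 2 had an unadjusted p under 0.05, both lower.

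Chaperones bind unfolded or partly folded proteins and keep them from aggregating. HSP70 proteins do so in cycles of ATP hydrolysis: DnaJ proteins, named after a shared J domain, deliver the client and trigger hydrolysis, and nucleotide exchange factors then release the ADP. HSP90 takes over kinases and receptors at a late stage of folding, the HSP60 and HSP10 chaperonin folds proteins inside mitochondria, and small heat shock proteins hold clients without ATP. Heart muscle, whose sarcomeres are under constant strain, is rich in small heat shock proteins. After proteotoxic stress the factor HSF1 induces the cytosolic set, and the unfolded protein response induces the set in the endoplasmic reticulum (ER).

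Most chaperone genes did not pass the test between cells with and without Yap, and the changes that passed were modest. Of 65 genes, 5 rose and 6 fell in Yap KO cells (limma, Benjamini-Hochberg adjusted p under 0.05 over all genes). That is 16.9% of the members, against 9.93% of all genes tested, of which 5.16% were called as higher and 4.76% as lower. At an unadjusted limma p under 0.05, 11 members were higher and 10 lower (32.3%), against 28.2% of all genes tested. Hspa13, Dnajb4, Dnajb11, Hspa12a and Dnajc10 rose. Hspa1a, Hspbp1, Hspb1, Hspb8, Hspa2 and Dnajc24 fell. The median log2 change of the 65 genes, Yap KO minus Yap HET, was 0.020, against -0.017 over all genes tested, and the median absolute change was 0.075 against 0.097. None of the 65 changed by as much as 2-fold. The groups did not overlap for 13 genes that were higher and 12 that were lower, 38.5% of the members, against 33.9% of all genes tested. The labels do not say that any array was prepared apart from the rest, but the counts depended on single arrays. Without Yap HET replicate 1 the 5 rises and 6 falls became 1 and 1, without Yap HET replicate 2 they became 4 and 3, and without Yap HET replicate 3 they became 1 and 3. Without Yap KO replicate 1 they became 3 and 3, without Yap KO replicate 2 they became 0 and 1, and without Yap KO replicate 3 they became 2 and 1. Hspbp1 kept its call in 5 of these 6 cases and Hspa1a, Hspa13 and Dnajb4 in 4. Dnajb11 kept it in only 2 cases, when replicate 2 of Yap HET or replicate 1 of Yap KO was left out. Hspb8 kept it when replicate 2 or 3 of Yap HET was left out. Hspb1 kept it in 1 case, and Hspa2, Hspa12a, Dnajc10 and Dnajc24 in 0.

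**Figure D1:**
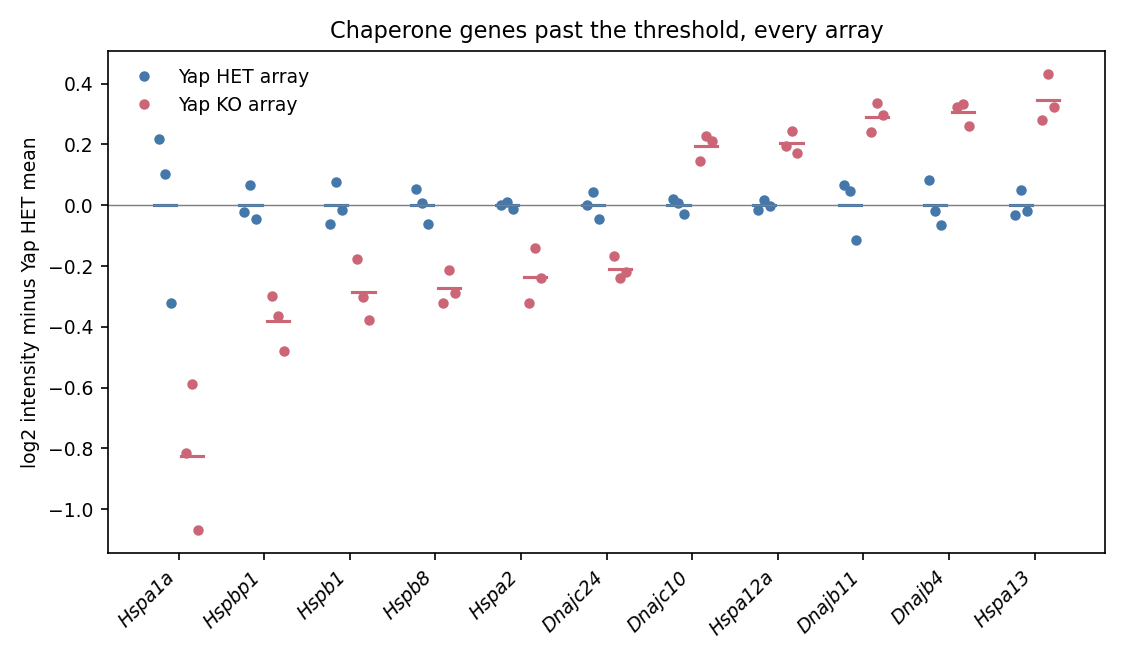
The 11 chaperone genes past the threshold, with genes on the horizontal axis and log2 intensity minus the mean of the 3 Yap HET arrays on the vertical axis. Each point is an array (blue Yap HET, red Yap KO) and each short line the mean of a group. Hspa1a stands lowest, with a mean of -0.82, and Hspa13 highest, with 0.35.

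The stress-inducible HSP70 gene Hspa1a had the largest change of all 65 members. Its probe set read 588, 543 and 405 on Yap HET arrays 1 to 3 against 287, 337 and 241 on Yap KO arrays 1 to 3. Every Yap KO array lay below every Yap HET array, but both groups were spread, with Yap HET replicate 3 well under the other two. The mean went from 512 ± 95.3 to 288 ± 47.8 (SD, n = 3). The level was 1.77-fold lower, with a log2 change of -0.82 ± 0.16 (SE; limma adjusted p = 0.0201). By size of change it was rank 61 of the 13632 genes. Dropping Yap HET replicate 1 or Yap KO replicate 3 ended the call. Over the 6 left-out arrays the log2 change ran from -0.98 to -0.70 and the limma adjusted p from 0.0159 to 0.0726.

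Hspa1a has a neighbouring, near-identical copy, Hspa1b, so a probe may read both. A further probe set, annotated to both genes and so outside the members, read 1093, 1054 and 810 on the Yap HET arrays against 644, 779 and 609 on the Yap KO arrays. The groups again did not overlap, and the log2 change was -0.54 ± 0.14, which did not pass when all probe sets above the level were tested (limma adjusted p = 0.0826). The likeness of the pair extends into their promoters. The 150 bases before each start were identical at 149 positions (99.3%), in RefSeq sequence of GRCm38.p6. They are given here because they hold the heat shock element, the site of HSF1, whose core is a pair of inverted GAA units; capitals mark the head-to-head core GAANNTTC. Hspa1a lies at chr17:34972157-34972306 and Hspa1b at chr17:34959239-34959388, both on the minus strand.
Hspa1a: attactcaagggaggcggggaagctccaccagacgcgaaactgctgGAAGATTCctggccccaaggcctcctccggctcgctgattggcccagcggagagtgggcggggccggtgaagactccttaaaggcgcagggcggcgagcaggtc
Hspa1b: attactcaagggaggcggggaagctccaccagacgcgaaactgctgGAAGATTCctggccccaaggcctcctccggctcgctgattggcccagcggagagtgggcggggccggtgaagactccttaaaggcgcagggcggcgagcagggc

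The HSP70 class as a whole had calls in both directions. Of its 10 tested genes, Hspa1a included, 2 rose and 2 fell, 40% against 9.93% of all genes tested. The class median was -0.002. Hspa8, the constitutive HSP70 of the cytosol, read 7970, 8069 and 7843 on the Yap HET arrays against 7796, 8243 and 7857 on the Yap KO arrays. The groups overlapped fully, with a log2 change of 0.0006 ± 0.05 and a 95% interval from -0.11 to 0.11. Hspa9, the mitochondrial HSP70, read between 3973 and 4025 on all 6 arrays (log2 change -0.004, 95% interval -0.11 to 0.10). Hspa5, which encodes the ER chaperone BiP, had a log2 change of 0.03 with an interval from -0.11 to 0.17. For these main HSP70 genes of the cytosol, mitochondrion and ER, the groups overlapped in each case.

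Among the less studied HSP70 relatives, Hspa13 rose the most of all members. It encodes STCH, an HSP70 relative of the ER that lacks the client-binding domain. It read 685, 725 and 691 on the Yap HET arrays against 850, 945 and 876 on the Yap KO arrays. All Yap KO arrays were higher, a 1.27-fold rise (log2 change 0.35 ± 0.06, limma adjusted p = 0.0126). Dropping Yap HET replicate 1 or Yap KO replicate 2 ended the call, with log2 changes from 0.30 to 0.38 over the left-out arrays. Hspa12a, a distant HSP70 relative, read 253, 258 and 255 against 292, 302 and 288. This was a small but tight difference, 0.20 ± 0.05 (limma adjusted p = 0.0374), that lost its call whichever array was left out (limma adjusted p from 0.0529 to 0.144). Hspa2, best known for its role in spermatogenesis, read 704, 710 and 699 on the Yap HET arrays against 563, 638 and 597 on the Yap KO arrays. It was lower on all 3 Yap KO arrays, with a log2 change of -0.23 ± 0.06 (limma adjusted p = 0.0449), and lost its call whichever array was left out. The paralog of Hspa12a, Hspa12b, which is known from endothelial cells, had -0.17 ± 0.07 and did not pass (limma adjusted p = 0.152).

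The small heat shock proteins divided into 2 genes that fell and 5 that did not pass the test. The share called was 28.6%, against 9.93% of all genes tested. Hspb1, which encodes HSP27, a chaperone of actin filaments, read 6356, 6996 and 6561 on the Yap HET arrays against 5873, 5375 and 5101 on the Yap KO arrays. No Yap KO array reached the Yap HET range. The mean fell from 6638 ± 327 to 5450 ± 392 (SD, n = 3), 1.22-fold lower (log2 change of -0.29 ± 0.07, limma adjusted p = 0.0393). A second probe set of Hspb1 gave -0.30 ± 0.07. The call held only without Yap KO replicate 1, and the limma adjusted p over the left-out arrays reached 0.135. Hspb8, which works with the cochaperone BAG3 in clearing damaged sarcomere proteins by autophagy, read 1647, 1595 and 1523 against 1270, 1371 and 1301. The groups stood clearly apart, with a log2 change of -0.27 ± 0.06 (limma adjusted p = 0.0242). Its partner Bag3 had 0.07 and did not pass (limma adjusted p = 0.404).

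The small heat shock proteins that mark muscle did not follow Hspb1 and Hspb8 past the threshold. Hspb7, the cardiovascular small heat shock protein, read 5458, 5031 and 5078 against 5226, 5069 and 4902, with a log2 change of -0.03 and a 95% interval from -0.16 to 0.09. Hspb2 had 0.04 and Hspb6 0.00, the latter with a wider interval from -0.20 to 0.20 because Yap KO replicate 1 read 1368 and the other Yap KO arrays 1689 and 1698. Hspb3, a muscle gene, read 725, 876 and 767 against 922, 884 and 945. It was higher on every Yap KO array by a small margin, and its log2 change of 0.22 ± 0.08 did not pass (limma adjusted p = 0.107). Hspb9 read 87 to 102 on the Yap HET arrays, close to the level filter, and cannot be told from background. Cryab, the alpha B crystallin gene that belongs to the same protein family under another symbol, had -0.15 (limma adjusted p = 0.108).

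The Hspb1 promoter is shown for comparison with that of Hspa1a, since both genes fell and both hold the same core. In the 150 bases before its start, chr5:135887769-135887918 on the plus strand, Hspb1 has the core GAANNTTC in 2 places, again in capitals.
Hspb1: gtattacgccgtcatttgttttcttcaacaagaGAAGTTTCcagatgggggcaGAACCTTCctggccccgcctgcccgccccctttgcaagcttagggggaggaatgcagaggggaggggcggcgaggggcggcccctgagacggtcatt

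The core was searched as GAANNTTC and as its tail-to-tail form TTCNNGAA, each of which reads the same on both strands and which can overlap each other. The windows ran from 250 bases before to 50 after each start. RefSeq windows were found for 54 of the 65 genes, 69 windows in all. At least 1 form was present in 14 of these windows (20.3%), against 15.1% of 32851 windows of all genes. By form, GAANNTTC was present in 12 of the windows (17.4%), against 7.86% of all windows, and TTCNNGAA in 6 (8.7%), against 8.52%. Among called genes, GAANNTTC was found for Hspa1a, Hspb1 and Hspb8, which fell. Dnajb4 and Dnajc10, which rose, had TTCNNGAA only. GAANNTTC was also found for 8 genes that did not pass the test, with changes of both signs. Whether either form goes with a direction of change was not tested. The mitochondrial chaperonin genes Hspd1 and Hspe1 are 2 of these 8. They had 3 matches each, all of them overlapping, and log2 changes of -0.03 and 0.04. The matches of Hspe1 have the letters of the Hspd1 matches read on the opposite strand, in reverse order. They may thus be 1 stretch counted for both genes. In Hspb8 the match begins 3 bases into the transcript. A match is only a run of letters, and HSF1 binding was not measured.

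Genes of the HSP90, HSP110 and chaperonin classes showed no call in either direction. Hsp90aa1, the inducible cytosolic HSP90, read 4201, 4077 and 4075 against 4226, 4195 and 4101 (log2 change 0.02, 95% interval -0.09 to 0.13). Hsp90b1, which encodes the ER paralog GRP94, read 4470, 4362 and 4361 against 4563, 5132 and 4546. All its Yap KO arrays were higher, mostly through Yap KO replicate 2, and the log2 change of 0.11 ± 0.06 did not pass (limma adjusted p = 0.289). Of the HSP110 genes, which act as exchange factors of HSP70, Hspa4 had -0.002 and Hspa4l 0.03. Hsph1, the stress-inducible HSP110, read 645, 716 and 661 against 596, 693 and 582, with overlapping groups (log2 change -0.11 ± 0.08, limma adjusted p = 0.38). Hspd1, the HSP60 gene, read 4328, 4086 and 4084 against 3962, 4168 and 4140. Its partner Hspe1, the HSP10 gene, read 3030, 3001 and 2840 against 3009, 3106 and 3015. Both overlapped between groups, and their 95% intervals ran from -0.15 to 0.09 and from -0.07 to 0.16. Over these 7 genes the limma test made 0 calls, and 0 had an unadjusted p under 0.05.

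3 members carry an Hspb prefix without being small heat shock proteins. Hspbp1 encodes a nucleotide exchange factor that releases ADP from HSP70, and it had the smallest p of all members. It read 1115, 1188 and 1099 on the Yap HET arrays against 922, 880 and 813 on the Yap KO arrays. The ranges were well separated, 1.30-fold lower (log2 change of -0.38 ± 0.06, limma adjusted p = 0.0122). The call ended only without Yap KO replicate 2, where the limma adjusted p was 0.0513. Hspbap1, which encodes a protein that binds HSPB1, had 0.01, and Hspb11, an intraflagellar transport gene, had 0.08 ± 0.12 with Yap HET replicate 3 at 408 and the other Yap HET arrays at 555 and 534.

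**Figure D2:**
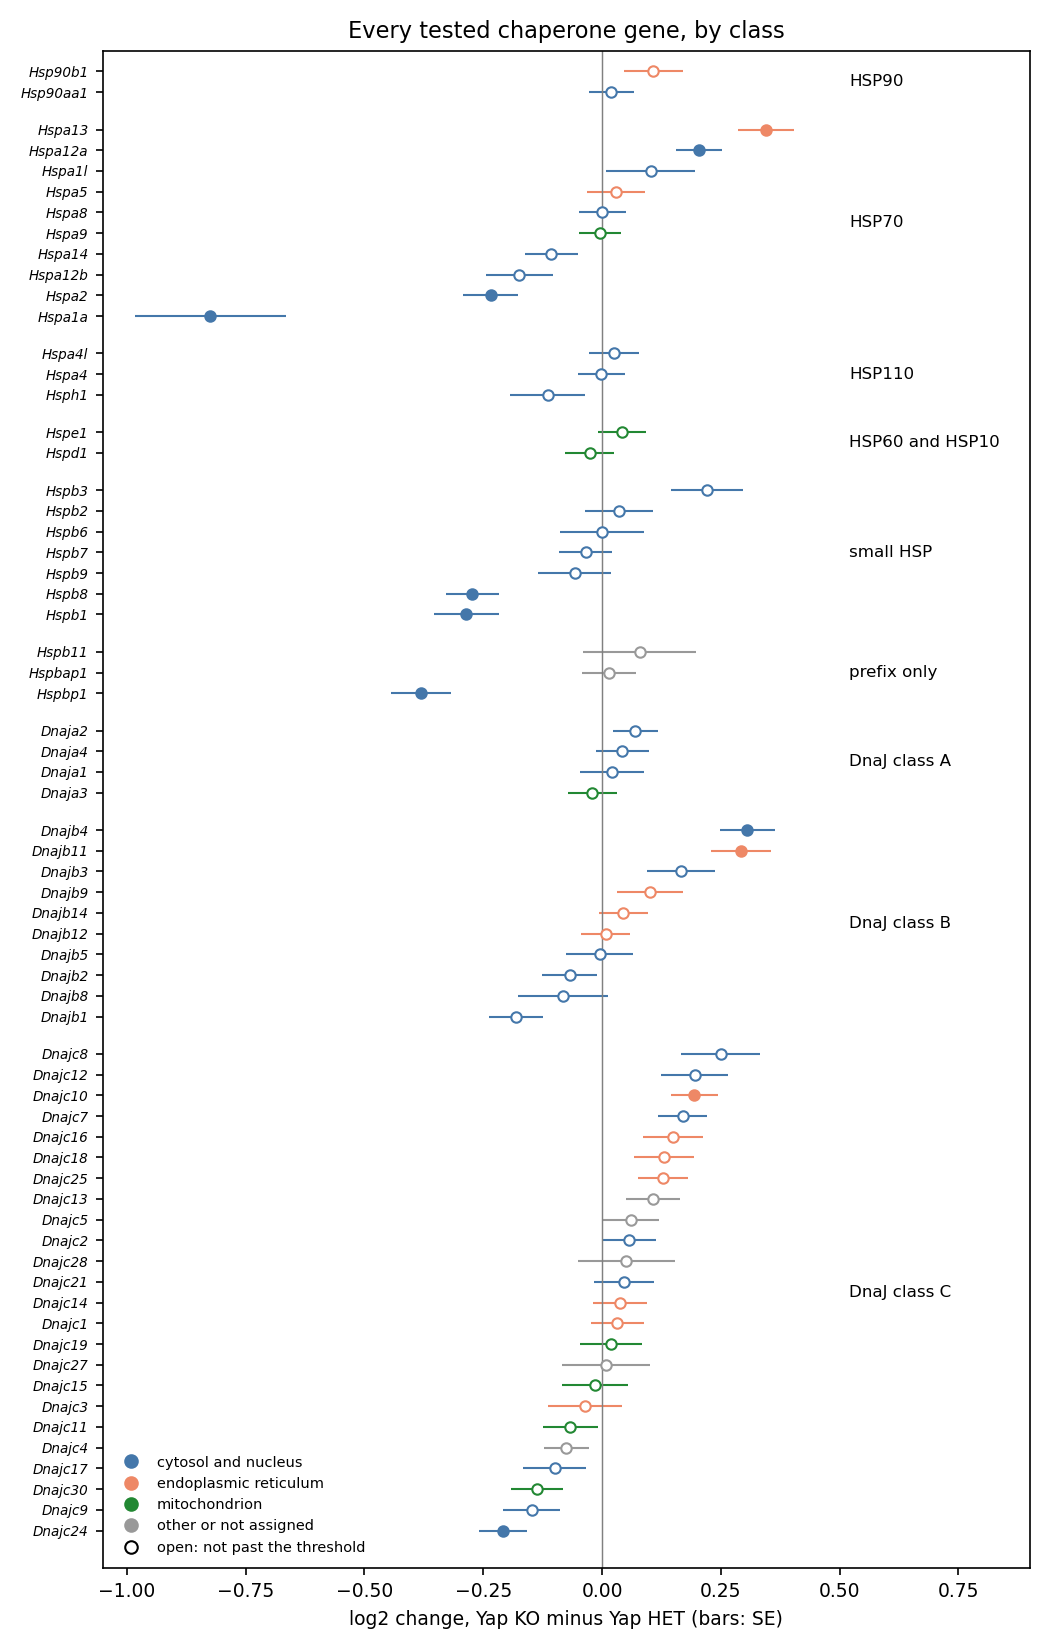
Log2 change, Yap KO minus Yap HET, on the horizontal axis for each of the 65 tested genes, grouped by class on the vertical axis, with bars for the SE. Filled points passed the threshold and colours give the compartment; the ER genes (orange) lie at or above 0 except Dnajc3, and the mitochondrial genes (green) lie between -0.14 and 0.04.

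The DnaJ cochaperones, 38 of the 65 genes, had 3 rises and 1 fall, 10.5% of them against 9.93% of all genes tested. They are sorted into class A, which resembles bacterial DnaJ in all its domains, class B, which lacks the zinc finger, and class C, which shares only the J domain. The 4 class A genes stayed between -0.02 and 0.07, with 0 calls by limma and 0 at an unadjusted p under 0.05. Dnaja1, an HSF1-induced partner of HSP70, read 2814, 2627 and 2758 against 2542, 2829 and 2960, a wide overlap. A probe set annotated to Dnaja1 together with Mir207 had -0.16 ± 0.09, with overlapping groups. It did not pass among all probe sets above the level (limma adjusted p = 0.292). Dnaja2 had 0.07 ± 0.05, Dnaja4 0.04 ± 0.06 and the mitochondrial gene Dnaja3 -0.02 ± 0.05.

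In class B, 2 of 10 genes rose and 0 fell, 20% against 9.93% of all genes tested. At an unadjusted limma p under 0.05, 2 were higher and 1 lower (30%, against 28.2% of all genes tested). Dnajb4, a cytosolic cochaperone also called HLJ1, read 2161, 2014 and 1949 on the Yap HET arrays against 2551, 2572 and 2442 on the Yap KO arrays. Every Yap KO array exceeded every Yap HET array by a clear margin, a 1.24-fold rise (log2 change 0.31 ± 0.06, limma adjusted p = 0.0185). Its call ended without Yap HET replicate 3 or without Yap KO replicate 2. Dnajb1, which encodes HSP40, the classical heat-inducible partner of HSPA1A, went the other way. It read 888, 851 and 805 against 726, 769 and 748, so the groups did not overlap, but the log2 change of -0.18 ± 0.06 did not pass (limma adjusted p = 0.0837). Dnajb2, which sorts clients for the proteasome, had -0.07, and Dnajb5 -0.005. Dnajb3 read 132, 129 and 123 on the Yap HET arrays against 134 to 159 on the Yap KO arrays. Both groups lay near the level filter (log2 change 0.17 ± 0.07, limma adjusted p = 0.18).

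Dnajb6, an inhibitor of protein aggregation, was measured by several probe sets. The set with its symbol alone was dim and was left out, but 4 probe sets shared with the predicted gene Gm4247 had means from 2152 to 2585. These had log2 changes from 0.15 to 0.18, with limma adjusted p from 0.152 to 0.163 among all probe sets above the level. The level of Dnajb6 cannot be separated here from that of Gm4247.

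Class C held 24 genes, of which Dnajc10 rose and Dnajc24 fell, 8.33% against 9.93% of all genes tested. Dnajc24, which takes part in making diphthamide, a modified residue of elongation factor 2, read 475, 491 and 461 against 423, 403 and 409. The Yap KO arrays were all lower, by a log2 change of -0.21 ± 0.05 (limma adjusted p = 0.0414), and the call ended whichever array was left out. At an unadjusted limma p under 0.05 the class had 6 higher and 3 lower genes (37.5%, against 28.2% of all genes tested). Those outside the calls included Dnajc7, a cochaperone that binds both HSP70 and HSP90, which read 1443, 1408 and 1331 against 1574, 1551 and 1577 (log2 change 0.17 ± 0.05, limma adjusted p = 0.0782). Dnajc8, a gene linked to the spliceosome, had 0.25 ± 0.08 (limma adjusted p = 0.10), with Yap HET replicate 3 at 396 and the other Yap HET arrays at 488 and 473. Dnajc9, a histone chaperone, had -0.15 ± 0.06 and did not pass (limma adjusted p = 0.152). Dnajc13, which acts on endosomes, had 15 probe sets, all with positive log2 changes from 0.05 to 0.29. The brightest, used here, had 0.11 ± 0.06.

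Set out by compartment, 13 of 14 ER members had a positive log2 change, against 6137 of the 13632 genes tested. Past the threshold, 3 rose and 0 fell. At an unadjusted limma p under 0.05, 5 were higher and 0 lower (35.7%, against 28.2% of all genes tested). The median was 0.105, against -0.017 over all genes tested. Of the 14, 21.4% were called, against 9.93% of all genes tested, of which 5.16% were called as higher and 4.76% as lower. Dnajb11, which encodes a soluble partner of BiP, read 1069, 1054 and 944 on the Yap HET arrays against 1206, 1290 and 1255 on the Yap KO arrays. All Yap KO values were above all Yap HET values, a 1.22-fold rise (log2 change 0.29 ± 0.06, limma adjusted p = 0.0299). Dnajc10, which encodes the ER disulfide reductase ERdj5, read 889, 880 and 859 against 968, 1025 and 1013. Its rise was small but clear of the replicate spread (log2 change 0.19 ± 0.05, limma adjusted p = 0.0478). Hspa13, described above, is the third. The calls depended on single arrays: leaving out Yap HET replicate 1 or Yap KO replicate 2 left 0 of the 3 rises, leaving out either replicate 3 left 1, and leaving out either remaining array left 2. The median without Yap KO replicate 2 was 0.055, and without any other array 0.095 to 0.110. With replicate 3 of Yap HET dropped 10 of the 14 log2 changes were positive, with replicate 2 of Yap KO dropped 12, and in the other 4 cases 13.

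Hspa5, Dnajb9 and Dnajc3, 3 ER genes known as targets of the unfolded protein response, did not pass the test. They are not the full set of its targets. Whether the ER members that rose are targets too was not tested. Hspa5 read 6316, 5982 and 6318 on the Yap HET arrays against 5927, 6696 and 6402 on the Yap KO arrays, with wide overlap. Dnajb9, which encodes ERdj4, read 1654, 1599 and 1586 against 1566, 1839 and 1798 (log2 change 0.10 ± 0.07). Dnajc3, which encodes P58IPK, read 822, 844 and 770 against 731, 879 and 771 (log2 change -0.04 ± 0.08). In all 3 genes, and in Hsp90b1, Yap KO replicate 2 was the highest array. The promoters of Hspa5 and Hsp90b1 are shown because they hold the ER stress response element, searched on both strands as CCAAT and CCACG with 9 bases between them and given in capitals. It was found in 0.119% of all windows and in 3 of the 69 member windows (4.35%), those of Hspa5, Hsp90b1 and Dnajc3. It had no match in the windows of Dnajb11 and Dnajc10, and no window was found for Hspa13. The stretches are chr2:34771940-34772089 on the plus strand and chr10:86705445-86705594 on the minus strand; in the second the element stands on the opposite strand to the gene, and a further match lies before the stretch shown.
Hspa5: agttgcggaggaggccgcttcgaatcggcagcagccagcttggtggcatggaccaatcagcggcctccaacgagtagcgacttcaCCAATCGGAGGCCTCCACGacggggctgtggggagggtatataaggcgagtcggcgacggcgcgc
Hsp90b1: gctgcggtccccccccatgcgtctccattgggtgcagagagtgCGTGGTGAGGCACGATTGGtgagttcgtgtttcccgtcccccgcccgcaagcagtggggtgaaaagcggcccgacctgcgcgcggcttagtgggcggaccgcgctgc

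The remaining ER members are J proteins of the membrane and lumen. Dnajc16 had 0.15 ± 0.06, Dnajc18 0.13 ± 0.06 and Dnajc25 0.13 ± 0.05, and none of them passed (limma adjusted p 0.168, 0.222 and 0.156). Dnajb14, Dnajc14, Dnajc1 and Dnajb12 lay between 0.01 and 0.04. Probe sets annotated to Dnajb14 together with Pin4 had larger log2 changes, 0.189 and 0.192, with no overlap of groups. They did not pass among all probe sets above the level (limma adjusted p = 0.103 and 0.0958). The median absolute log2 change was 0.105 in the ER, 0.105 in the cytosol and nucleus and 0.097 over all genes tested. It was 0.023 for the mitochondrial genes. Of 8, 0 passed the threshold with limma, 1 was lower at an unadjusted p under 0.05, and the median was -0.017. In all, 6 of the 8 had a negative log2 change. The gene with an unadjusted limma p under 0.05 was Dnajc30, which acts on ATP synthase, at 895, 900 and 902 against 863, 777 and 815. Its Yap KO arrays were all lower (log2 change -0.14 ± 0.05, limma adjusted p = 0.149). Dnajc19 and Dnajc15, J proteins of the import motor, had 0.02 and -0.01. The 36 cytosolic and nuclear genes held 2 rises and 6 falls, 22.2% of them against 9.93% of all genes tested, of which 5.16% were called as higher and 4.76% as lower. Their median was -0.001, and 18 of the 36 were positive. Of the 7 members in other or unassigned places, such as Dnajc13, 6 had a positive log2 change, with a median of 0.051; limma called 0 of them, and 0 had an unadjusted p under 0.05. Differences between compartments were not tested.

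**Figure D3:**
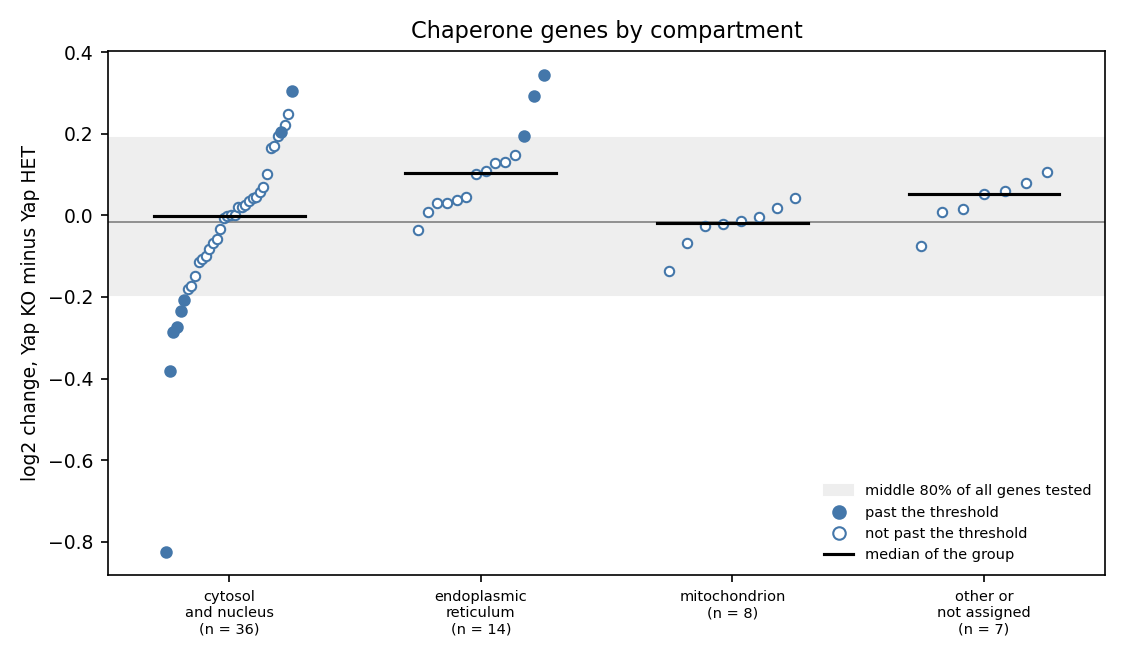
Log2 change, Yap KO minus Yap HET, on the vertical axis for the 65 genes, by compartment on the horizontal axis. Filled points passed the threshold, black lines are group medians, and the grey band holds the middle 80% of all genes tested (-0.195 to 0.19). Above 0 lie 13 of 14 ER genes, against 6137 of the 13632 genes tested in all.

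The rest of the folding machinery had few calls. Of 74 tested genes in 7 related lists, 2 rose and 1 fell, 4.05% against 9.93% of all genes tested, and the median log2 change was 0.027. The heat shock factor genes tested had 0 calls with limma and 1 higher at an unadjusted p under 0.05, namely Hsf2 at 0.13 (limma adjusted p = 0.152). The gene of HSF1 is not analysed here. Of 9 HSP70 exchange factor genes 0 passed and 2 were higher at an unadjusted p under 0.05, Bag2 at 0.22 (limma adjusted p = 0.056) and Bag1 at 0.18 (limma adjusted p = 0.085). Hspbp1, an exchange factor by function, was thus the one with a call. Of 16 HSP90 and HSP70 cochaperone genes 0 passed with 1 higher gene at an unadjusted limma p under 0.05, and all lay between -0.11 and 0.14. Stip1, which links HSP70 to HSP90, had -0.07.

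Of 14 genes of the cytosolic chaperonin TRiC and of prefoldin, which fold actin and tubulin, 1 rose, the prefoldin gene Vbp1. It went from 1296 ± 27.5 to 1531 ± 97.0 (log2 change 0.24, limma adjusted p = 0.0467). In this list 12 of the 14 log2 changes were positive. At an unadjusted limma p under 0.05, 4 were higher and 0 lower (28.6%, against 28.2% of all genes tested). Of 12 mitochondrial proteostasis genes 1 fell, the protease gene Htra2 (1470 ± 25.2 to 1132 ± 34.3, log2 change -0.38, limma adjusted p = 0.00526). At an unadjusted limma p under 0.05, 2 were higher and 3 lower (41.7%). The groups did not overlap for 3 higher and 5 lower genes of this list, 66.7% against 33.9% of all genes tested. Of 18 genes of ER folding and the unfolded protein response 1 rose, P4hb, which encodes protein disulfide isomerase. P4hb went from 2709 ± 112 to 3265 ± 139 (log2 change 0.27, limma adjusted p = 0.0274). At an unadjusted limma p under 0.05, 2 of the 18 were higher and 0 lower (11.1%). The response's transcription factor genes Xbp1, Atf4, Atf6 and Ddit3 had -0.03, 0.08, 0.09 and -0.16 and did not pass. Neither did Calr and Canx, the lectin chaperones, at 0.07 and 0.04. Of the 2 rises, 0 were left when Yap HET replicate 1 or 3 or Yap KO replicate 2 or 3 was dropped and 1 when Yap KO replicate 1 was, whereas the 1 fall stayed at 1 without any single array.

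**Figure D4:**
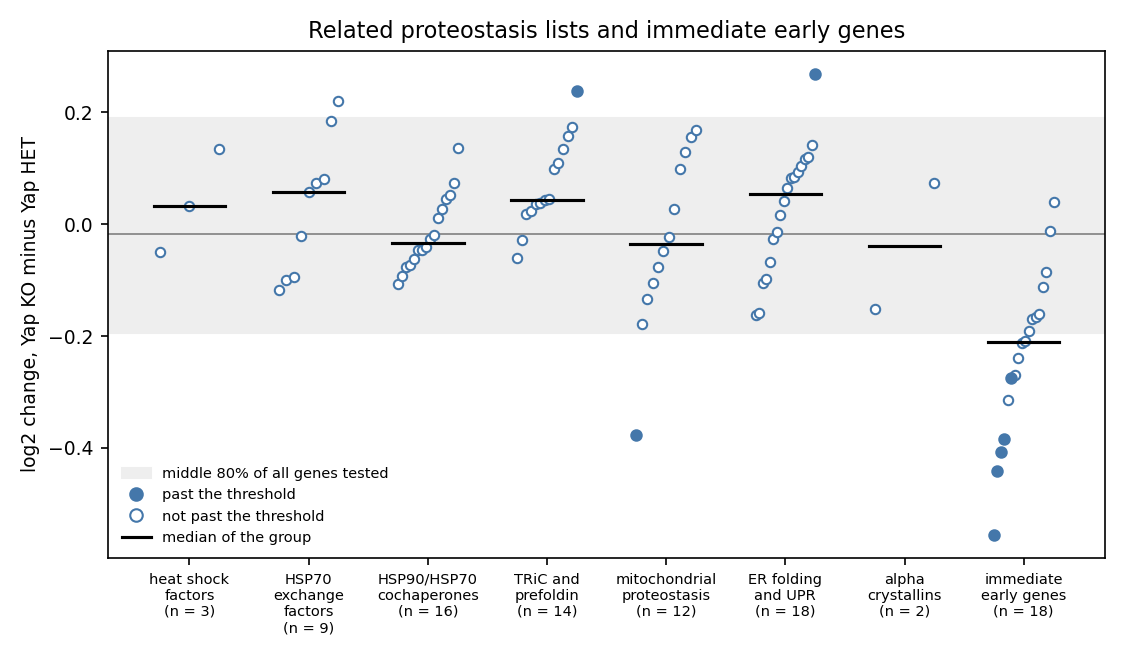
Log2 change, Yap KO minus Yap HET, on the vertical axis for genes of 7 related lists and of the immediate early genes, with the grey band for the middle 80% of all genes tested. Filled points passed the threshold and black lines are list medians; Vbp1, P4hb and Htra2 are the called genes of the 7 lists, and the immediate early genes have a median of -0.21.

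Other transcripts moved with the same comparison. Immediate early genes respond quickly to enzymatic dissociation and sorting, as heat shock genes such as Hspa1a do. Of 18 listed, 17 had a negative log2 change, as did 7495 of the 13632 genes. The limma threshold was passed by 5 of the list, all of them lower (27.8%). For the whole set of genes the share was 9.93%, with 4.76% called as lower. At an unadjusted limma p under 0.05, 11 of the 18 were lower and 0 higher. This was 61.1% of the list, where the whole set gave 28.2%. The summed intensity of the 18 genes was 33290 to 34040 on the Yap HET and 27110 to 29650 on the Yap KO arrays, and their median log2 change was -0.211. Fos read 2252 ± 96.5 and 1724 ± 83.9, and Atf3 3191 ± 129 and 2354 ± 186 (SD, n = 3; limma adjusted p = 0.00913 and 0.00975). By the median over the list, the log2 difference from the Yap HET mean was 0.029, -0.001 and -0.032 on Yap HET arrays 1 to 3 and -0.297, -0.161 and -0.183 on Yap KO arrays 1 to 3. The Yap HET arrays stood in the same order for this level and for Hspa1a. Yap KO replicate 2 was the highest Yap KO array for both, while the lowest was replicate 1 for this level and replicate 3 for Hspa1a. Hspb1, which also fell, stood in another order, with Yap HET replicate 2 and Yap KO replicate 1 highest in their groups. Whether the level of the immediate early genes goes with either gene was not tested.

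Markers of other heart cells also moved. The share called was 50% of the mesenchymal and cushion, 33.3% of the endothelial, 16.7% of the epicardial and 40% of the myeloid markers tested. Over all genes tested the share was 9.93%, with 5.16% called as higher. Of 8 mesenchymal and cushion markers 4 rose, with summed intensity from 4031 to 4342 on the Yap HET and from 5180 to 6557 on the Yap KO arrays. Of 6 endothelial markers above the level 2 rose, Kdr and Eng, and the sums over all 7 listed were 982 to 1042 and 1296 to 1407. Of 6 epicardial markers Tcf21 rose (sums 3042 to 3729 and 2076 to 3310), while 4 of the 6 had a negative log2 change and the median was -0.249. Upk3b and Tbx18, at -0.68 and -0.37, were lower with no overlap but did not pass (limma adjusted p = 0.0606 and 0.144). Of 5 myeloid markers above the level H2-Ab1 and Lyz2 rose (sums over all 6 listed 1626 to 1993 and 1846 to 2062). The other 3, Cd68, Ptprc and Csf1r, were lower on every Yap KO array, at -0.72, -0.17 and -0.21, and did not pass (limma adjusted p = 0.0632, 0.0738 and 0.105), so the list median was -0.173. Of the 6 erythroid markers listed 4 were annotated and 3 tested, 0 passed, 1 had an unadjusted limma p under 0.05 (higher), and the sums were 249 to 642 and 373 to 2527. None of these markers read under 1 on any array. The part of these cells and of the immediate early response in the chaperone changes was not tested. In bulk RNA, fewer cells of a type and less RNA per cell cannot be told apart.

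Genes with several probe sets gave close values in some cases and not in others. The 15 sets of Dnajc13, all above the level, ran from 0.05 to 0.29 as given above, and their limma adjusted p among all probe sets above the level ran from 0.0536 to 0.602. The 3 sets of Hspa8 had log2 changes from 0.0006 to 0.02, those of Hsp90aa1 from -0.003 to 0.02, those of Hspd1 from -0.05 to -0.03 and those of Hspe1 from 0.005 to 0.04. The 2 sets of Dnajc3 held identical values. A set annotated to Hspa8 together with the small nucleolar RNA genes Snord14c and Snord14d differed from the Hspa8 sets: it read 1147, 1168 and 1313 on the Yap HET arrays against 1243, 777 and 668 on the Yap KO arrays. Its groups overlapped through Yap KO replicate 1, and it did not pass (log2 change -0.48 ± 0.22, limma adjusted p = 0.231 among all probe sets above the level).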

How the data were processed

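RNA of sorted cells was labelled and hybridised to Affymetrix mouse gene arrays. The authors deposited an intensity on a linear scale for each of 35556 probe sets and named RMA without a version, per the submitters' processing notes. The sources used here do not say why the scale is not log2, so log2 was taken before testing. The platform annotation gave 1 symbol to 21789 probe sets, several to 1621 and none to 12146. Symbols were updated through Entrez identifiers (GRCm38.p6 gene table, 21698 matched). Yap KO and Yap HET were compared with limma 3.58.1 (lmFit, eBayes; R 4.3.3), group as the only term, with Benjamini-Hochberg adjustment over 13632 genes at 0.05. No detection call was used, so values near 85.7 cannot be told from background. The number of arrays limits precision.

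The fit was tested on simulated data. Members, classes, compartments and lists were chosen with earlier results of these data known, so lists are described by counts and medians. Class and compartment were assigned by hand from general knowledge. The rule for named genes took all members past the threshold, the 4 smallest p in each class and the members beside the level filter; in related lists it took called genes and up to 4 by p. Genes outside it were named after their values were seen. Alternatives were other filters, probe set means, normalizations, priors, the replicate block and each array left out; testing every probe set above the level was added after seeing the data.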

Additional observations from a re-analysis of the deposited data

How the results depend on the processing

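The 5 rises and 6 falls among chaperone genes became 1 and 1 with no filter on dim probe sets, where 508 of all genes were called, and 2 and 3 when every probe set above the level was tested, where 703 genes were called. Both adjust over more tests; other causes were not tested. They stayed within 1.5 times under a 60th percentile filter, probe set means, quantile normalization, median centring and a trended, robust prior; with this prior 2246 genes were called. The same replicate numbers occur in both groups. Correlations of same-numbered arrays' deviations were -0.076, -0.171 and 0.124, and those of other pairs ran from -0.232 to 0.278. Deviations were taken within groups of 3, so the correlations depend on each other and cannot show whether the numbers pair the samples. With the replicate block the counts were 2 and 2, and 698 over all genes. The cause was not tested. Over left-out arrays the rises ranged from 0 to 4 and the falls from 1 to 3. The 2 rises in the related lists became 0 with no filter, the replicate block or every probe set above the level, 6 with the 60th percentile filter, which tests fewer genes, and 9 with the trended prior, and ranged from 0 to 2 over left-out arrays; the 1 fall became 3 with the trended prior. The median of the chaperone genes stayed between 0.000 and 0.042 throughout, less than the array spread of 0.031 from its value. Of the 14 ER genes, 13 were positive under both other normalizations, and 10 to 13 over left-out arrays. For the named genes, 341 comparisons with an alternative kept side of the threshold, 69 lost a call, 7 gained one and 0 calls reversed.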
